A study of Homo sapiens with 18 samples.

Results

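The 39 HOX genes of the human genome were followed through 18 RNA sequencing libraries of an osteosarcoma cell model. They were the rows of the expression table whose symbol is HOX, a cluster letter from A to D and a number, and all 39 were found among the 50119 genes in the table. HOX genes encode homeodomain transcription factors. They lie in 4 clusters in which the order of the genes on the chromosome follows the order of their expression domains along the body axis, so that low paralog numbers mark anterior and high paralog numbers posterior positions. Mesenchymal cells keep a memory of the site they came from in the set of HOX genes that they express, held by Polycomb and Trithorax chromatin proteins, and this set is often called the HOX code.

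Each of the 6 groups held 3 libraries. D-2 was the cell line grown as a flat culture for 14 days, and D-3 was the same line grown for 14 days inside Matrigel, a basement membrane gel. DP-3 was printed with the cells in a bioink of modified gelatin and alginate and sampled after 14 days, and DP-3 day 1 was the same printed tissue after 1 day. FIT was fresh tumor tissue that had grown from the injected cells under the skin of female BALB/c nude mice, and IT was such tissue cut into pieces and cultured for 14 days on Matrigel. All libraries were labelled as the same wild-type osteosarcoma line, Saos-2 (spelled Soas-2 in the labels), and the labels name no drug or gene change. The groups are compared here for the positional HOX code that the cells hold in a dish, in gels and in a tumor. FIT and IT can hold mouse host cells, and the reads were handled as human. The labels do not say whether the replicates were separate cultures or animals, so the p-values measure only the spread between these libraries. Per the paper, the excised tumor was split between tissue culture and fresh tissue, so IT and FIT libraries may share animals. Which of them do is not given, and the main fits took IT and FIT as unpaired. In such bulk samples fewer cells of a type and less RNA per cell cannot be told apart.

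The libraries held 23721666 to 79082786 estimated counts, with the lowest total in FIT replicate 3. DP-3 day 1 had 34591 to 34919 genes above 0, against 22915 to 29630 in the others. The identity on the labels was checked against defining genes. Of the osteoblast genes, ALPL, an enzyme for which Saos-2 is known, was at 0 to 0.148 FPKM (fragments per kilobase of gene, scaled to the depth of the library), IBSP at 0 to 0.0802 and SP7 at 0 to 0.0949, while SPARC was at 110.6 to 289 FPKM. These values go against the labelled line, and the groups are therefore called by their culture names only.

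The genes that led the code belonged to paralog groups 9 and 10. The homeobox stretches that encode the DNA-recognition helix of 6 of these paralogs are printed because 3 of them (HOXC10, HOXB9 and HOXA10) were among the 4 HOX genes with the highest means over all 18 libraries, HOXB9 mainly through D-3, while HOXD9 and HOXD10 were near 0 outside FIT. They were read from GENCODE release 29 on GRCh38. Each is 57 bases long and lies in 1 exon, and capitals mark the bases that differ from HOXB9.
HOXB9: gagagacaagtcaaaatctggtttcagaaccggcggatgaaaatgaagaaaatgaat
HOXD9: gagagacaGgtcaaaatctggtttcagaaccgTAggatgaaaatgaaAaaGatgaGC
HOXC9: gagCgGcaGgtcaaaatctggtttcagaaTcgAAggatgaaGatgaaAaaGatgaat
HOXA10: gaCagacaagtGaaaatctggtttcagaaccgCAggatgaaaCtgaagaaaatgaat
HOXC10: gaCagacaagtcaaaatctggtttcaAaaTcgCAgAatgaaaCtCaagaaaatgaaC
HOXD10: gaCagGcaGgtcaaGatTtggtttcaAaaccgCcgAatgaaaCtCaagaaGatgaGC
HOXA10 differed from HOXB9 at 5 of these bases, HOXD9 at 7, HOXC9 and HOXC10 at 9 each, and HOXD10 at 13. The HOXB9 stretch lies at chr17:48622921-48622977 on the minus strand and that of HOXD10 at chr2:176119127-176119183 on the plus strand. Over the whole transcripts, the longest run of identical bases between HOXB9 and any other HOX transcript was 40 bases, shared with HOXD9, and that of HOXD10 was 27 bases, shared with HOXC4.

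HOX genes lie close together, and their annotated spans overlap. Of the 39 genes, 25 overlap a gene on the other strand and 24 a gene on the same strand, often another HOX gene. The strand setting of the authors' counting is not given in the sources used here, so reads of a HOX gene and of its antisense partner cannot be told apart. HOXB9 (chr17:48621156-48626358, minus strand) lies within the annotated span of HOXB7, which was at 0 to 0.299 FPKM.

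A gene was called expressed in a group at a mean of at least 1 FPKM. Of the 39 genes, 9 were expressed in all 6 groups, 20 in none and 10 in some, so that 29 kept 1 class throughout. Among the 9 were HOXA4, HOXA5, HOXA9 and HOXA10, then HOXB9, and HOXC6, HOXC9 and HOXC10. No HOXD gene was among them. Expressed in all groups were 47.4% of the 19 HOX genes expressed in at least 1 group, against 74.8% of the 14210 such genes of the whole table. FIT had the most expressed HOX genes, 17, followed by DP-3 day 1 with 16, D-3 and IT with 15 each, D-2 with 12 and DP-3 with 11.

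**Figure D1:**
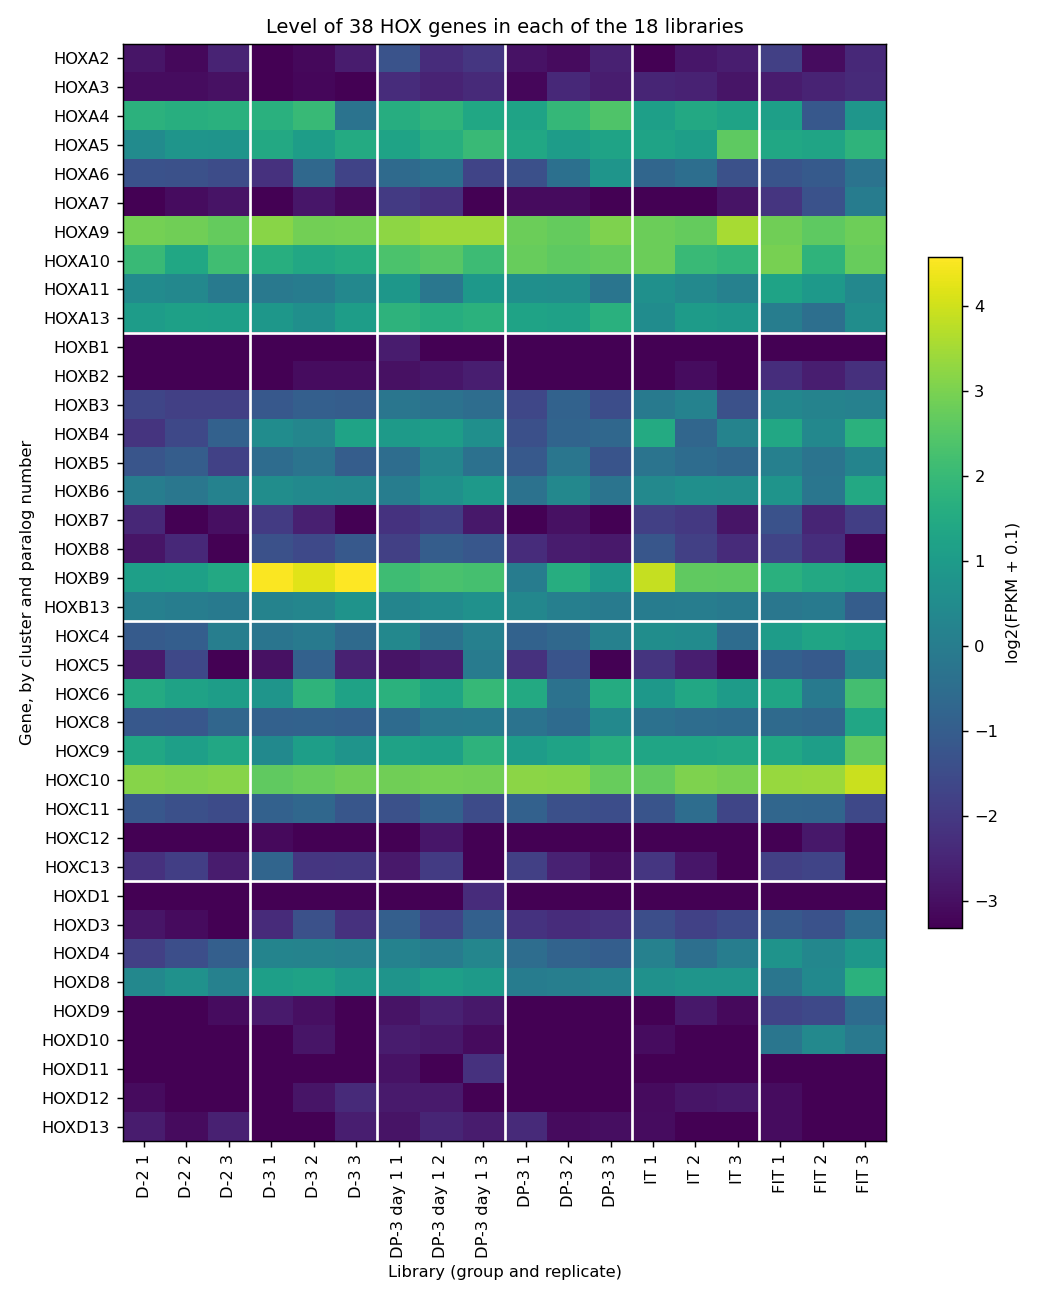
Colour shows log2(FPKM + 0.1) of 38 HOX genes (rows, by cluster and paralog number) in each of the 18 libraries (columns, by group). The rows of HOXA9 and HOXC10 are bright in every library, HOXB9 is brightest in D-3 and in IT replicate 1, and HOXD10 rises above the dark level only in the 3 FIT libraries.

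HOXC10 and HOXA9 had the highest means over the 18 libraries, 8.34 and 7.86 FPKM, followed by HOXB9 with 7.00 and HOXA10 with 4.72. HOXC10 (chr12:53985065-53990279, plus strand), a posterior gene of the hindlimb and lumbar region, was at 6.17, 6.6 and 7.16 FPKM in D-3 and at 8.75, 8.26 and 8.73 in D-2. IT held 6.33, 8.19 and 7.63, DP-3 9.17, 8.96 and 6.56 and DP-3 day 1 7.22, 7.55 and 7.36 FPKM. FIT was highest, at 10.1, 10.3 and 15.2 FPKM, and overlapped with no other group. The whole span of its group means was 1.78-fold, from 6.64 ± 0.496 in D-3 to 11.8 ± 2.87 in FIT (mean ± SD, n = 3). The edgeR quasi-likelihood test of any difference between the 6 groups gave an adjusted p = 0.00253 for HOXC10, below the threshold but at less than 2-fold.

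HOXA9 (chr7:27162438-27169737, minus strand), a regulator of blood progenitors and of the posterior trunk, varied least among the leading genes. Its group means ran from 6.74 ± 0.643 FPKM in FIT to 10.2 ± 0.841 in DP-3 day 1, a 1.51-fold span. The D-2 libraries were at 7.55, 7.1 and 6.49 FPKM, the D-3 libraries at 8.83, 7.36 and 7.41 and the DP-3 libraries at 6.84, 6.41 and 8.16. IT held 6.78, 6.38 and 11.4 and FIT 7.21, 6.01 and 7 FPKM. IT replicate 3 and the DP-3 day 1 libraries (9.19, 10.6 and 10.7) were the highest, every other library was at or below 8.83, and the difference between the 6 groups did not pass the test (adjusted p = 0.405).

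HOXA10 (chr7:27170592-27174320, minus strand), a posterior gene known from the uterus and from limb patterning, was lowest in D-3. It was at 3, 2.57 and 2.82 FPKM there and at 6.64, 5.96 and 6.4 in DP-3, and these groups did not overlap. D-2 was at 4, 2.48 and 4.32, DP-3 day 1 at 4.92, 5.68 and 4.19, IT at 6.91, 3.97 and 3.53 and FIT at 7.69, 3.41 and 6.52 FPKM. HOXA10 differed between the 6 groups at a 1.39 log2 span (adjusted p = 0.0135). The direct comparison of D-3 with DP-3 gave a log2 fold change of -1.40 (SE 0.17, adjusted p = 0.00568). Between D-3 and FIT the adjusted p was 0.0516, just above the threshold.

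HOXB9, a posterior gene of the thoracic skeleton and mammary gland, had the largest difference in FPKM between group means. In D-3 it was at 22.8, 18.6 and 23.7 FPKM and was the most abundant HOX gene of all 3 libraries. IT was next, at 14.5, 6.09 and 6.06 FPKM, with replicate 1 well above the others. DP-3 day 1 held 4.25, 4.79 and 4.65. D-2 with 2.11, 2.14 and 2.59, FIT with 3.14, 2.62 and 2.4 and DP-3 with 0.896, 2.95 and 1.83 FPKM formed the low end and overlapped with each other. The order of the means was D-3 (21.7 ± 2.73 FPKM), IT (8.87 ± 4.85), DP-3 day 1 (4.56 ± 0.282), FIT (2.72 ± 0.382), D-2 (2.28 ± 0.270) and DP-3 (1.89 ± 1.03). D-3 lay above every other group with no overlap, IT above DP-3 day 1, and DP-3 day 1 above the low groups. The largest distance between means, D-3 to DP-3, was 11.5-fold. HOXB9 differed between the 6 groups (log2 span 3.30, adjusted p = 1.71e-05), with an adjusted p of at most 0.000122 when any 1 of the 18 libraries was left out.

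**Figure D2:**
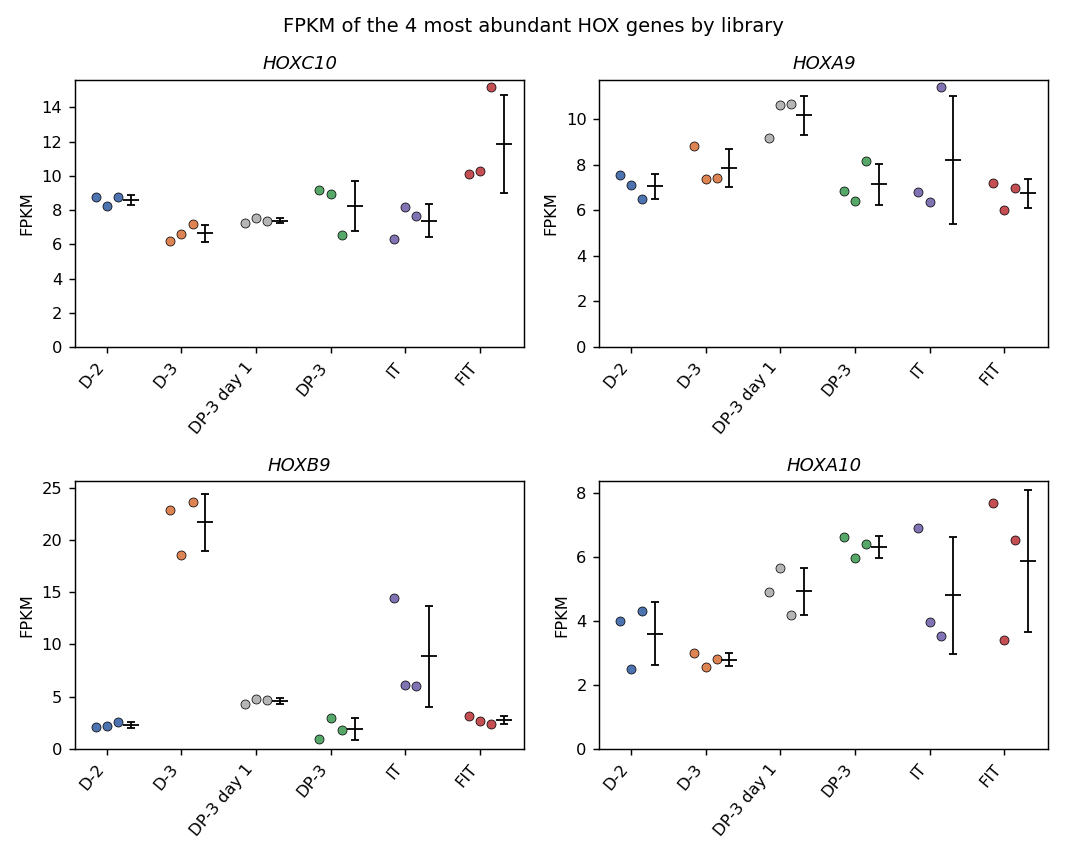
Points show FPKM in each library of the 6 groups for the 4 HOX genes with the highest mean over all libraries, with the mean and SD (n = 3) as a bar beside them. HOXB9 stood at 18.6 FPKM or more in the 3 D-3 libraries and at 4.79 or less in FIT, D-2, DP-3 and DP-3 day 1, while HOXA9 stayed between 6.01 and 11.4 in all libraries.

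The summed level of the 39 genes was highest in D-3, at 64.4 ± 1.76 FPKM, ahead of FIT with 59.8 ± 14.2, IT with 55.7 ± 5.06, DP-3 day 1 with 59 ± 2.83, DP-3 with 48.2 ± 3.66 and D-2 with 42.2 ± 1.73. HOXB9 alone was 33.6% of the sum in D-3, against 5.40% in D-2 and 3.93% in DP-3. Without it the D-3 sum was 42.7 ± 1.15 FPKM and the D-2 sum 39.9 ± 1.62, with libraries at 41.5 to 43.8 FPKM in D-3 and 38.1 to 41.04 in D-2. The HOXA sum was the largest cluster sum in IT, D-2, DP-3 and DP-3 day 1. FIT held 22.5 ± 4.36 FPKM, D-3 21.2 ± 1.74 and D-2 20.9 ± 1.12, which differed by less than the spread of FIT. The HOXD cluster was the weakest, with 1.61 ± 0.102 FPKM in DP-3, 1.6 ± 0.178 in D-2 and 4.9 ± 1.7 in FIT. FIT replicate 3, the library with the fewest counts, had the highest HOXC and HOXD sums (31.9 and 6.85 FPKM).

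**Figure D3:**
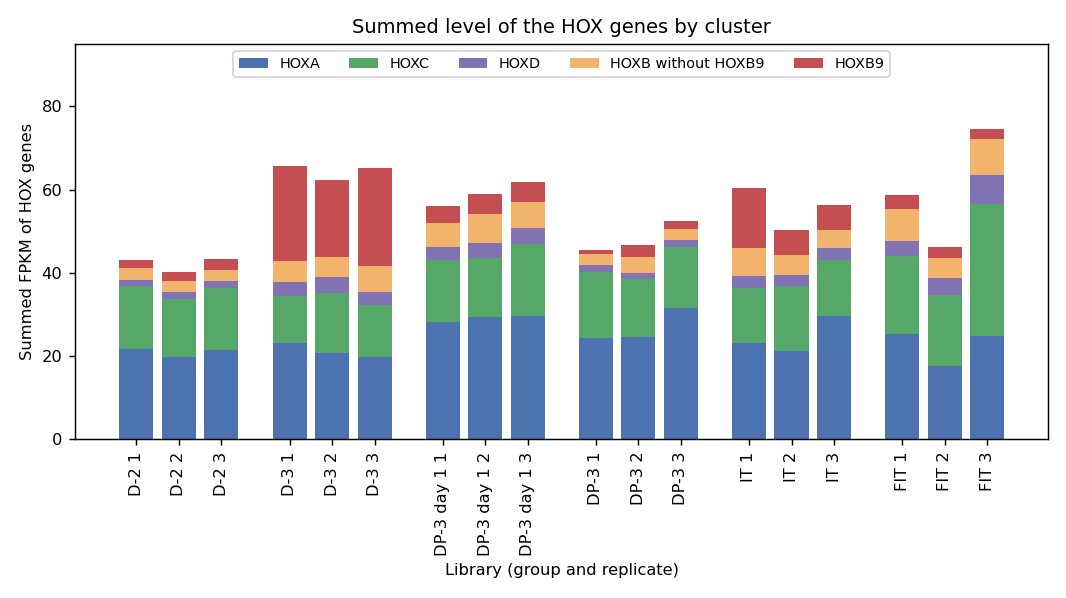
Stacked bars show the summed FPKM of the HOXA, HOXC, HOXD and HOXB genes in each library, with HOXB9 drawn apart from the other HOXB genes. The HOXB9 segment is 18.6 to 23.7 FPKM tall in D-3 and 0.896 to 2.95 in DP-3, while the HOXA segments of D-2 and D-3 are of like height.

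The other genes expressed in all groups were less abundant. HOXC6, a thoracic gene, ran from 2.06 ± 1.19 (DP-3) to 3.11 ± 0.723 FPKM (DP-3 day 1), with single libraries as low as 0.694 and as high as 4.54. HOXC9, also thoracic, was lowest in D-3 (1.63 ± 0.402 FPKM) and highest in FIT (3.60 ± 2.31), where replicate 3 alone was at 6.25. HOXA5, which acts in lung and rib patterning, ran from 1.52 ± 0.182 (D-2) to 3.45 ± 2.24 FPKM (IT), the latter with 1 library at 6.04. HOXA4, a cervical gene, ran from 1.37 ± 0.914 (FIT) to 3.73 ± 1.45 FPKM (DP-3). It was at 3.12, 3.89 and 0.708 FPKM in D-3, a spread within 1 group that was larger than the distance between most group means. For none of these 4 genes did the test of the 6 groups pass at an adjusted p below 0.05, with the adjusted p of HOXC9 at 0.163, HOXA4 at 0.217, HOXA5 at 0.277 and HOXC6 at 0.97. A p above the threshold does not show that the levels were equal.

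The 10 genes that were expressed in some groups had means on both sides of the threshold. HOXA11, HOXA13 and HOXD8 were above it in 5 groups, HOXB4 and HOXB6 in 4, HOXD4 in 3, HOXB13 and HOXC4 in 2, and HOXB3 and HOXC8 in 1. HOXA13 was just under 1 FPKM in FIT (0.980 ± 0.368), HOXA11 in D-3 (0.966 ± 0.205) and HOXD8 in DP-3 (0.954 ± 0.0646). HOXB3 was just above it in FIT (1.07 ± 0.0752). HOXB4 was the clearest change of class. This central gene, known from blood stem cells, was at 0.127, 0.226 and 0.445 FPKM in D-2 and 0.281, 0.481 and 0.519 in DP-3. D-3 held 1.34, 1.13 and 2.27, DP-3 day 1 1.89, 2 and 1.43 and FIT 2.58, 1.18 and 3.2 FPKM, all above both of the former. IT spread across the range, at 2.72, 0.503 and 1.05.

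Across the 6 groups, 31 HOX genes passed the filter of at least 0.1 FPKM in at least 3 libraries and 11 were called, at an adjusted p below 0.05 and at least 2-fold between the highest and lowest group. That was 35.5% of the tested members, against 23.8% of the 25977 genes tested in all. The 11 were HOXB9, HOXA10 and HOXA13 among the posterior genes with a mean above 1 FPKM in most groups, HOXB3, HOXB4, HOXC4, HOXD3 and HOXD4 of the anterior and central paralogs, and the low genes HOXA7, HOXD9 and HOXD10. When 1 of the 18 libraries was left out, HOXC4 lost its call without FIT replicate 2 (adjusted p = 0.0768) and HOXA7 without any 1 of D-2 replicate 2, D-3 replicate 3, DP-3 replicate 2 or FIT replicates 2 and 3 (up to 0.204). HOXD10 and HOXD9 fell under the filter without any 1 of the FIT libraries. They passed it only through FIT, where they were high, and add no support to the count. The median log2 span between highest and lowest group was 1.63 for the members, HOXD9 and HOXD10 included, and 1.49 for all genes. In a test of the 4 cell cultures alone (D-2, D-3, DP-3 day 1 and DP-3) 6 were called, against 5253 of all 23773 genes tested. Over 135 pairs of libraries from different groups the correlation of the log2(FPKM + 0.1) values of the 39 genes had a median Pearson's r of 0.922, lowest 0.773, and over the 18 pairs within a group 0.958, lowest 0.908. The corresponding medians over all genes that passed the filter were 0.937 and 0.955. The correlations run across genes, which are not independent, and all libraries share the line and the library preparation. Without HOXB9 the median between groups was 0.937.

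Each culture was then compared with FIT, the group that the study took as its reference. The comparisons share the 3 FIT libraries and so are not independent of each other. In D-2 against FIT, 28 HOX genes were tested and 10 were called (35.7%, against 14.6% of all 19513 genes tested). Of these, 1 was higher in D-2, where 3.83% of all genes were called higher, and 9 were lower, against 10.8% of all. The 9 include HOXD10, HOXD9, HOXA7 and HOXD3, which passed the filter only through FIT, where they were high, so that they could be called only as lower and add no support to the count. The libraries of the groups did not overlap for 16 of the 28, those members among them, against 49.9% of all genes. The median log2 fold change of the tested members was -0.55, against -0.09 for all genes. It includes the 4 members that could come out only as lower and so adds no support either. HOXD10, at 0 in every D-2 library, was also set to a limit of 12 estimated counts. The median could not move from -0.55 with this, because HOXD10 stayed below it.

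The genes lower in D-2 were mostly of the anterior and central paralogs. HOXB3 was at 0.216, 0.184 and 0.18 FPKM in D-2 and 1.15, 1.07 and 1 in FIT (log2 fold change -2.30, SE 0.22, adjusted p = 0.00184). HOXB4 followed (log2 fold change -2.93, SE 0.57, adjusted p = 0.00982), and its neighbour HOXB5 was at 0.325, 0.402 and 0.187 against 0.978, 0.717 and 1.07 FPKM (log2 fold change -1.43, SE 0.40, adjusted p = 0.0318). In the other clusters HOXC4 was at 0.382, 0.412 and 0.937 FPKM in D-2 and 1.96, 2.37 and 2.14 in FIT (log2 fold change -1.74, SE 0.40, adjusted p = 0.0167). All 3 D-2 libraries lay below all 3 FIT libraries for each of these 4 genes. HOXD4 was at 0.184, 0.268 and 0.429 FPKM in D-2 and 1.57, 1.16 and 1.7 in FIT (log2 fold change -2.13, SE 0.44, adjusted p = 0.012), and HOXD3 at 0.0357, 0.0177 and 0 and 0.36, 0.294 and 0.583 (log2 fold change -4.27, SE 0.98, adjusted p = 0.017). Of paralog group 4, HOXB4, HOXC4 and HOXD4 were thus called lower, while HOXA4 was at 3.26, 2.96 and 3.09 FPKM in D-2 and 2.11, 0.349 and 1.65 in FIT (adjusted p = 0.105).

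HOXA13, the most posterior HOXA gene, known from the digits and the genital tract, was the member called higher in D-2. It was at 1.94, 2.14 and 2.08 FPKM in D-2 and 0.924, 0.642 and 1.37 in FIT, with no overlap (log2 fold change 1.24, SE 0.28, adjusted p = 0.0152). When 1 library at a time was left out, HOXB3, HOXB4 and HOXD4 stayed called in all 6 fits. HOXA13 lost its call without D-2 replicate 2, FIT replicate 1 or FIT replicate 2 (adjusted p up to 0.0558), HOXC4 without D-2 replicate 1 or 2 (up to 0.0607), HOXD3 without D-2 replicate 2 (0.0592) and, as it then fell under the filter, without any 1 of the FIT libraries, and HOXB5 without any 1 of the D-2 libraries or FIT replicate 1 (up to 0.0854).

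HOXD10 and HOXD9 exceeded 12 estimated counts in the FIT libraries alone, and HOXA7 in FIT and in 2 libraries of DP-3 day 1. HOXD10 (chr2:176108790-176119394, plus strand), a hindlimb gene, was at 0.759, 1.22 and 0.807 FPKM in FIT. It was listed at 0 in the 3 D-2 and the 3 DP-3 libraries. IT held 0.0188, 0 and 0 FPKM, D-3 0, 0.0371 and 0 and DP-3 day 1 0.0501, 0.0412 and 0.017. The FIT values stood for 149, 242 and 56 estimated counts. A library at 0 allows up to 12 estimated counts, which is 3 read pairs at about 4 counts each, and this limit covers counting error only. Against that limit per library HOXD10 was at least 17.6-fold lower in D-2 than in FIT and at least 16.0-fold lower in DP-3. The adjusted p was 0.00791 for DP-3, 0.0194 for D-3 and 0.00224 for D-2. In D-3 the call was lost without D-3 replicate 1 or replicate 3 (adjusted p up to 0.0719).

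HOXD9 was at 0.208, 0.235 and 0.582 FPKM in FIT (31, 35 and 31 estimated counts) and at 0 to 0.0641 in the other 15 libraries. Against FIT it was called with an adjusted p of 0.018 for D-2 and 0.0228 for DP-3, and it was at least 4.45-fold lower in DP-3. HOXA7 was at 0.134, 0.297 and 0.888 FPKM in FIT (27, 57 and 60 counts), at 0.151, 0.12 and 0 in DP-3 day 1 and at 0 to 0.0380 in the rest. Against FIT it was called with an adjusted p of 0.0364 for DP-3 and 0.0279 for D-2, and it lost the call without any 1 of the D-2 or DP-3 libraries. In the comparisons with FIT these 3 genes passed the filter only through FIT. Without a FIT library they fell under the filter and were not tested.

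Some genes from lists of host cell types were also higher in FIT, and others were not. The keratinocyte gene KRT5 was at 0.642, 0.917 and 2.04 FPKM in FIT and at 0 to 0.10 elsewhere. Of the keratinocyte list of 6 genes, 3 had a mean of at least 1 FPKM in FIT, against 1 (KRT10) in each other group, KRT1, DSG3 and KRTDAP were at 0 in FIT, and the sum of the list was 21.5 to 41.3 FPKM in FIT and 16.2 to 27.6 elsewhere. The skeletal muscle list of 7 genes summed to 0.535 to 5.23 FPKM in FIT against 0 to 0.375 elsewhere. MYH2 was at 0.0692, 0 and 3.61 FPKM in the FIT libraries, and CKM at 0 in all of them. The summed endothelial list of 7 genes was at 3.92 to 6.08 FPKM in FIT and 4.31 to 6.58 in IT, against 1.24 to 2.42 in the 4 cell cultures, with PECAM1 as most of the sum. PECAM1, CDH5 and TEK had higher means in FIT and IT than in any cell culture, while VWF (0.00772 FPKM in FIT, 0.120 in DP-3 day 1), KDR (0.00175 and 0.0370) and EMCN (0.0758 in FIT, 0.351 in DP-3) did not. The fibroblast list of 6 genes summed to 17.6 to 29.4 FPKM in FIT, 10.5 to 18.5 in IT and 6.10 to 15.2 in the cell cultures. PDGFRA made up most of it (21.7 FPKM in FIT), while LUM (0.302 FPKM in FIT) and COL14A1 (0.0536) had lower means in FIT than in each cell culture. Lists of macrophage (19.7 to 56.1 FPKM) and adipocyte genes (0.296 to 0.954 FPKM) were not higher in FIT than in the cultures, where they summed to 43.1 to 117 and 0.207 to 8.81 FPKM. The part of host cells in the HOX values was not tested.

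The promoter of HOXD10 is printed beside that of HOXA9, as a gene near 0 outside FIT and a gene expressed in every library. Both windows run from 250 bases before to 50 bases after the RefSeq start on GRCh38.p14, and capitals mark CG pairs.
HOXD10, chr2:176116528-176116827, plus strand: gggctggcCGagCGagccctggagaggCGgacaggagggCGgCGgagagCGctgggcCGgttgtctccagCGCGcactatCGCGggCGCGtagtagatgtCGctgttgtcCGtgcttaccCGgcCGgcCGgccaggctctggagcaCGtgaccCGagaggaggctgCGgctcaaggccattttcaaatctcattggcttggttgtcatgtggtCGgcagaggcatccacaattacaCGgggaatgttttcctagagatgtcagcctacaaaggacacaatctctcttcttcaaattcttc
HOXA9, chr7:27165488-27165787, minus strand: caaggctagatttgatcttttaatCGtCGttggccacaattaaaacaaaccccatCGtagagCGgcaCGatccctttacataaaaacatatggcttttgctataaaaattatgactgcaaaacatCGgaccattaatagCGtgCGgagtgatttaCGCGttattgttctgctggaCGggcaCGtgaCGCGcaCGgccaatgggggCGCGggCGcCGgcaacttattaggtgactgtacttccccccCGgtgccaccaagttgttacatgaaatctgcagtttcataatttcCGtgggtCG
The HOXD10 window holds 23 CG pairs and the HOXA9 window 22, more than 64.4% and 62.4% of the 27305 promoters of the same length. The letters CCAAT, searched on both strands, were in both windows and in 17 of the 20 HOX promoters at hand, against 35.7% of all promoters. TATAAA was in the HOXA9 window, in 4 of the 20 and in 12% of all. TGATTNAT, the letters of a joint PBX and HOX site, were in neither window, in 2 of the 20 and in 2.94% of all.

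**Figure D4:**
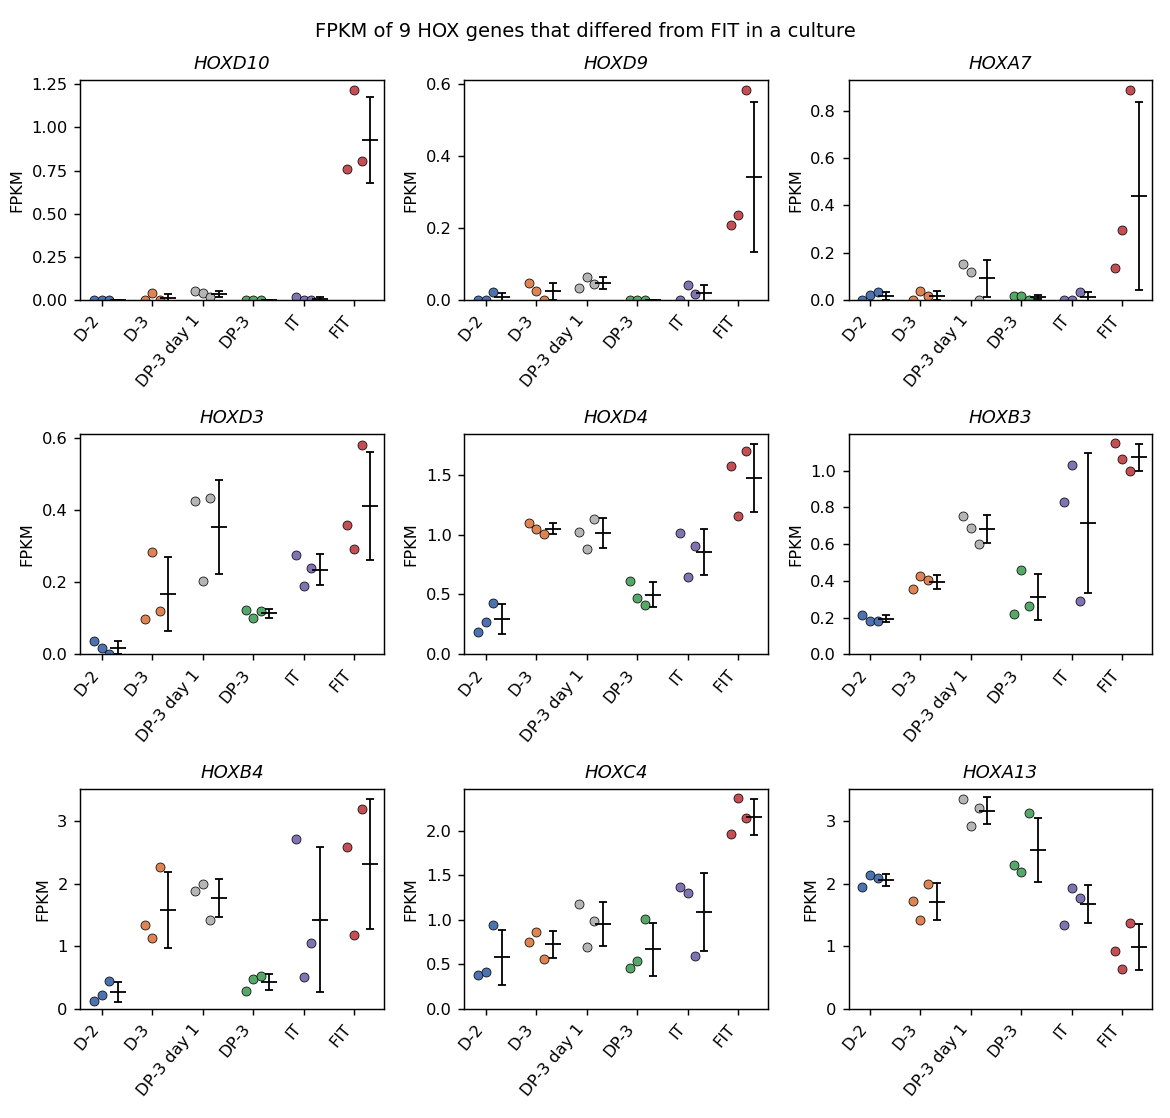
Points show FPKM in each library for 9 HOX genes called in at least 1 culture against FIT, with the mean and SD (n = 3) as a bar beside them and a separate FPKM axis for each gene. HOXD10 and HOXD9 are near 0 outside FIT, HOXA7 is at most 0.151 FPKM outside FIT with 2 DP-3 day 1 libraries level with FIT replicate 1, the 5 genes HOXD3, HOXD4, HOXB3, HOXB4 and HOXC4 have their lowest mean in D-2 and their highest in FIT, and HOXA13 has its lowest mean in FIT.

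In D-3 against FIT, 30 HOX genes were tested and 4 were called (13.3%, against 6.45% of all 21676 genes), 1 higher (background 4.29%) and 3 lower (background 2.17%). The groups did not overlap for 15 of the 30, against 32.4% of all genes. HOXB9 was higher in D-3 (log2 fold change 2.93, SE 0.19, adjusted p = 0.000702) and remained called in each fit without 1 library. HOXB3, at 0.353, 0.426 and 0.406 FPKM in D-3, was lower (log2 fold change -1.48, SE 0.27, adjusted p = 0.0188), as was HOXC4 at 0.747, 0.86 and 0.558 (log2 fold change -1.63, SE 0.33, adjusted p = 0.0244). Both lay below FIT in every library. Both lost the call without D-3 replicate 1 or 3 or without FIT replicate 1 or 2, with adjusted p up to 0.0898 for HOXB3 and 0.111 for HOXC4. HOXD10 was the remaining call. HOXC10 was lower at an adjusted p of 0.0386, but by less than 2-fold. The median log2 fold change of the members was -0.66, against 0.02 for all genes. The 3 members HOXD10, HOXD9 and HOXA7 passed the filter only through FIT, where they were high, and could come out only as lower. HOXD10 thus adds no support to the count of calls, nor do the 3 to the count without overlap or to the median, which includes them.

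In DP-3 against FIT, 28 were tested and 6 were called (21.4%, against 4.82% of all 20039 genes), 1 higher (background 1.66%) and 5 lower (background 3.16%). HOXD10, HOXD9 and HOXA7, 3 of the 5, passed the filter only through FIT, where they were high, and add no support to the count. The groups did not overlap for 13 of the 28, these 3 among them, against 34.1% of all genes. HOXA13 was higher in DP-3, at 2.3, 2.18 and 3.13 FPKM (log2 fold change 1.52, SE 0.32, adjusted p = 0.0339). HOXB3 at 0.217, 0.456 and 0.264 FPKM (log2 fold change -1.65, SE 0.33, adjusted p = 0.0299) and HOXB4 (log2 fold change -2.29, SE 0.47, adjusted p = 0.0306) were lower, beside HOXD10, HOXD9 and HOXA7. HOXC4, HOXD3 and HOXD4 lay below FIT in every DP-3 library but had adjusted p-values of 0.05, 0.058 and 0.0637. Leaving out single libraries left 0 to 3 calls, against 90 to 1438 of all genes. Without FIT replicate 1 no member was called, HOXA13 lost the call without any 1 of DP-3 or FIT replicates 1 and 2 (adjusted p up to 0.113), HOXB3 without DP-3 replicate 1 or 3 or FIT replicate 1 or 2 (up to 0.0928), HOXB4 without any 1 of DP-3 or FIT replicate 1 (up to 0.0966), and HOXD9 without any 1 of DP-3 (up to 0.0679).

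In IT against FIT, 30 members were tested and 0 were called, as were 0 of all 21183 genes with edgeR. At an unadjusted p below 0.05 there were 7 HOX genes, against 2693 of all 21183 genes. DESeq2 called 5 members, HOXD10, HOXB9, HOXA7, HOXD9 and HOXC5, against 661 of all genes. HOXB9 was at 14.5, 6.09 and 6.06 FPKM in IT, above all FIT libraries (log2 fold change 1.70, SE 0.37, adjusted p = 0.195), and HOXD10 below all of them (adjusted p = 0.142). Of the 30 members, 9 did not overlap between the groups, against 20.6% of all genes. These were 1 member higher in IT, against 11.1% of all, and 8 lower, against 9.49% of all. The 8 were HOXA7, HOXC4, HOXC5, HOXC10, HOXD3, HOXD4, HOXD9 and HOXD10. Of these, HOXA7, HOXD9 and HOXD10 passed the filter only through FIT, where they were high. They could come out only as lower and add no support to the count.

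Over the 14 days of culture of the printed tissue, 25 HOX genes were tested and 2 were called (8%, against 7.56% of all 20774 genes). Both were lower at day 14, against 5.76% of all genes called lower. The groups did not overlap for 9 of the 25, against 45.2% of all. HOXB4 was lower (log2 fold change -1.78, SE 0.34, adjusted p = 0.0119) and remained called in each fit without 1 library. HOXB8, a thoracic gene, was at 0.181, 0.4 and 0.337 FPKM on day 1 and 0.0994, 0.0508 and 0.0439 in DP-3 (log2 fold change -1.90, SE 0.55, adjusted p = 0.0474), on 12 to 59 estimated counts for 5 of the 6 libraries and 8 for the last. It lost the call without DP-3 replicate 2 or 3 (adjusted p up to 0.107), and fell under the filter without any 1 of the day 1 libraries. HOXB8 passed the filter only through day 1, where it was high, so it could be called only as lower and adds no support to the count. HOXA10 was higher in DP-3 at an adjusted p of 0.0223 but by less than 2-fold. HOXB9 was at 4.25, 4.79 and 4.65 FPKM on day 1 and 0.896, 2.95 and 1.83 in DP-3 (adjusted p = 0.107).

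The cultures were also compared with each other, a choice made after the values had been seen. In D-3 against D-2, which differ in the gel at the same 14 days, 24 members were tested and 3 were called, all higher in D-3 (12.5%, against 18.5% of all 20231 genes called and 14.6% called higher). The groups did not overlap for 11 of the 24, against 53.2% of all genes. HOXB8, among the 11, passed the filter only through D-3, where it was high, and adds no support to this count. HOXB9 was higher (log2 fold change 3.00, SE 0.16, adjusted p = 0.000498), as were HOXB4 (log2 fold change 2.30, SE 0.53, adjusted p = 0.0151) and HOXD4 at 1.09, 1.05 and 1 FPKM in D-3 (log2 fold change 1.55, SE 0.43, adjusted p = 0.0283). HOXB9 stayed called without any 1 library. HOXB4 lost the call without D-2 replicate 2 or D-3 replicate 3 (adjusted p up to 0.0535), and HOXD4 without D-2 replicate 1 or 2 or D-3 replicate 1 or 3 (up to 0.0841). HOXC10 was lower in D-3 (adjusted p = 0.00961) by less than 2-fold. In DP-3 against D-2, 25 were tested and 0 were called, against 1.04% of all 18549 genes, and 6 did not overlap, against 30.9% of all. HOXD3, among the 6, passed the filter only through DP-3, where it was high, and adds no support to this count. At an unadjusted p below 0.05 there were 5 members, HOXD3 among them, against 4210 of all 18549 genes. DESeq2 also called 0 members, against 680 of all genes. In D-3 against DP-3, 26 were tested and 3 were called (11.5%, against 9.12% of all 20682 genes), HOXB9 (log2 fold change 3.30, SE 0.39, adjusted p = 0.00561) and HOXB4 (log2 fold change 1.66, SE 0.44, adjusted p = 0.0403) higher (background 7.15%) and HOXA10 lower in D-3 (background 1.98%). The groups did not overlap for 9 of the 26, against 39.7% of all genes. HOXB8, among the 9, again passed the filter only through D-3 and adds no support to this count. HOXB4 lost this call without any 1 of D-3 replicate 1, D-3 replicate 3 or the DP-3 libraries (adjusted p up to 0.143).

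Of the 20 genes expressed in no group, several stood close to 0 in every group. HOXD11, HOXD12 and HOXD13, which pattern the digits, reached at most 0.119, 0.0926 and 0.0899 FPKM in any library. HOXD1, HOXB1 and HOXC12 were at or under 12 estimated counts in all 18 libraries. The anterior genes HOXA2, HOXA3 and HOXB2, which act in the hindbrain and pharyngeal arches, reached 0.303, 0.10 and 0.116 FPKM at most. Others were nearer to the threshold. HOXB5, HOXA6, HOXC5 and HOXD10 exceeded 1 FPKM in at least 1 library, HOXC11 was at 0.213 to 0.612 FPKM in all 18, HOXC13 reached 0.499, HOXB8 0.400 and HOXB7 0.299.

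The genes that hold or use the code were looked at through lists. The TALE homeodomain proteins bind DNA as partners of HOX proteins. Of the 9, 8 were tested and 1 differed between the 6 groups, MEIS3, at 2.25, 2.2 and 2.7 FPKM in D-2 and 7.51, 5.05 and 6.02 in D-3. It was lower in D-2 than in FIT (log2 fold change -1.25, SE 0.13, adjusted p = 0.00205) and higher in D-3 than in D-2 (log2 fold change 1.13, SE 0.18, adjusted p = 0.0048). PBX2 was the most abundant partner, at 7.61 to 15.4 FPKM.

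Polycomb proteins keep HOX genes silent and Trithorax proteins keep them active. Of the 16 Polycomb genes, all were tested and 4 were called across the 6 groups, among them EZH1, CBX2 and CBX7. EZH1, a histone H3 lysine methyltransferase, was at 10.7, 5.14 and 8.98 FPKM in D-3, 1.32, 1.72 and 1.76 in D-2, 2.32, 2.42 and 2.2 in DP-3 and 3.94, 3.64 and 3.51 in FIT. DP-3 day 1 held 5.93, 5.77 and 5.52 and IT 5.83, 4.62 and 7.49 FPKM, and both overlapped with D-3. D-3 was above the other groups in every library, and the comparison with D-2 was called (log2 fold change 2.11, SE 0.28, adjusted p = 0.0028), as were those with DP-3 (adjusted p = 0.011) and FIT (adjusted p = 0.0398). Both EZH1 (log2 fold change -1.04, SE 0.09, adjusted p = 0.00182) and CBX7 (log2 fold change -1.21, SE 0.16, adjusted p = 0.00365) were lower in DP-3 than in DP-3 day 1. EZH2, the main methyltransferase of proliferating cells, was at 5.41 to 12.9 FPKM and was called in no edgeR comparison. None of the 9 Trithorax genes was called in any of the fits, with WDR5 at 12.1 to 24.98 FPKM and PSIP1 at 9.89 to 23.9.

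Upstream regulators set the code in the embryo. Of 10 genes, 5 were tested, and GDF11, RARB and CYP26B1 were called across the 6 groups. GDF11, a trunk-to-tail growth factor, rose from 3.18, 3.35 and 3.52 FPKM in DP-3 day 1 to 5.3, 6.12 and 6.01 in DP-3 (log2 fold change 1.06, SE 0.11, adjusted p = 0.00205). RARB, a retinoic acid receptor, was higher in D-2 than in FIT (log2 fold change 1.17, SE 0.35, adjusted p = 0.0398). Of 24 noncoding RNAs of the clusters, 12 were tested across the 6 groups and 1 was called, HOTAIRM1, a transcript of the HOXA cluster. IT had the highest mean, with libraries at 5.56, 5.92 and 12.1 FPKM, and DP-3 day 1 held 4, 3.87 and 4.44. FIT held 5.93, 4.97 and 3.69 FPKM, DP-3 1.92, 3.15 and 1, D-3 7.54, 4.89 and 8.82 and D-2 1.66, 1.74 and 2.56. D-3 was higher than D-2 (log2 fold change 1.57, SE 0.29, adjusted p = 0.0075).

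**Figure D5:**
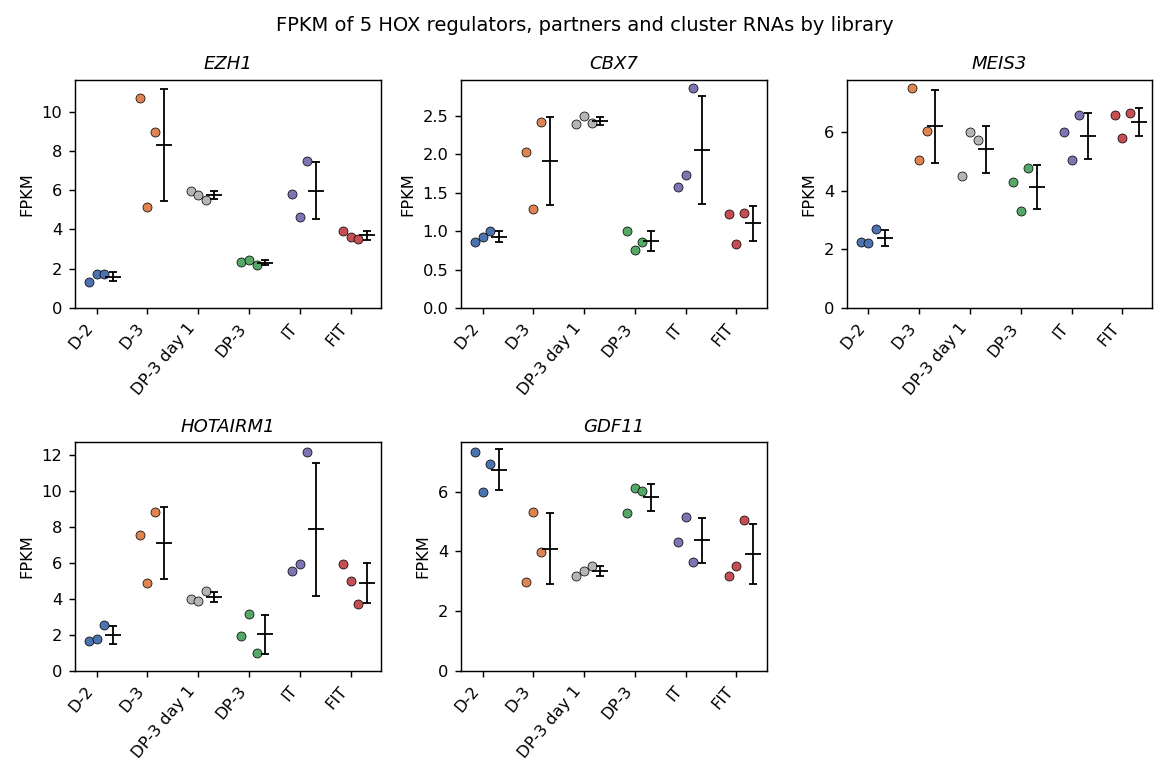
Points show FPKM in each library for 5 genes from the lists of regulators, partners and cluster RNAs, with the mean and SD (n = 3) as a bar beside them and a separate axis for each gene. EZH1 and HOTAIRM1 are lowest in D-2 and DP-3, and the 3 EZH1 values of D-3, at 5.14 to 10.7 FPKM, lie above the FIT values of 3.51 to 3.94.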

How the data were processed

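Poly(A) RNA of 18 libraries was sequenced in read pairs. Per the labels, second-strand cDNA was marked with dUTP. The submitters' processing notes name cutadapt 1.9, HISAT2 2.0.4, StringTie 1.3.4d, DESeq2 and edgeR, and the genome build and annotation are not given in the sources used here. FPKM values, as deposited, were StringTie output of the authors. How they made the estimated counts, which were deposited beside them, is not given in the sources used here. About 4 stand for 1 read pair, and 35.0% of the low values were multiples of 4. All libraries of a group differed by more than sampling noise, and 0 value columns were left unused. The files' coordinates overlap the GENCODE release 29 genes of GRCh38 in 99.98% of 48223 genes and all 39 HOX genes.

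The rounded counts were tested with edgeR 4.0.16 (TMM scaling, estimateDisp, glmQLFit, glmQLFTest; R 4.3.3), on the 6 libraries of each pair of groups or on all 18. Genes with at least 0.1 FPKM in at least 3 libraries of the fit were tested, p-values were adjusted by Benjamini-Hochberg over all of them, and calls needed an adjusted p below 0.05 and at least 2-fold. Each SE is given for a pair of groups and is the fold change divided by the root of the F statistic. DESeq2 1.42.0, limma 3.58.1 on log2(FPKM + 0.1) or log2(FPKM + 1), other filters and scaling, and fits without 1 library were alternatives. The fits were tested on simulated data. Plots were drawn with matplotlib 3.10.9. Some results, 1 member's among them, are not reported here. Levels of each library are given for members called or leading, and other members are given by range. The members, lists and tests were chosen with earlier results of these data known, and the comparisons among D-2, D-3 and DP-3 were added after the values were seen.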

Additional observations from a re-analysis of the deposited data

Results flagged for a closer look

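The HOX response relative to FIT differed between cultures for 4 genes, as tested by edgeR between the cultures themselves. Between D-3 and D-2 the log2 difference was 3.00 for HOXB9, 2.30 for HOXB4 and 1.55 for HOXD4. Between D-3 and DP-3 it was 3.30 for HOXB9, -1.40 for HOXA10 and 1.66 for HOXB4. HOXB9 was called in all 6 fits without 1 library in both comparisons. HOXD4 was called in 2 of 6 such fits, and HOXB4 in 4 of 6 and 1 of 6. These comparisons were chosen after the values had been seen.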

How the results depend on the processing

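With DESeq2 the calls against FIT were 5 in IT, 10 in DP-3 and 7 in D-3. Over all genes they were 661 of 21183, 1898 of 20039 and 2498 of 21676. There were 4 in DP-3 against DP-3 day 1 (2041 of all 20774 genes) and 5 in D-3 against DP-3 (2750 of all 20682). With limma on log2(FPKM + 1), which holds down low genes, the calls against FIT were 1 in DP-3, 1 in D-3 and 2 in D-2. Over all genes tested, 435, 721 and 899 were called. There was 1 in DP-3 against DP-3 day 1 (493 of all genes) and 1 in D-3 against DP-3 (737 of all). Across the 6 groups there were 4 (2636 of all). With limma on log2(FPKM + 0.1) the calls were 1 in IT against FIT (12 of all 21183 genes) and 5 in D-3 against DP-3 (2444 of all 20682). A filter at 1 FPKM left 4 in D-2 against FIT (1602 of all 12056 genes) and 1 in DP-3 against DP-3 day 1 (900 of all 12438). It left 7 across the 6 groups (4340 of all 14033). No filter gave 1 in IT against FIT (53 of all 36728) and 1 in DP-3 against DP-3 day 1 (1972 of all 46731). In one fit of all 18 libraries 2 were called in IT against FIT (553 of all 21183 genes). In DP-3 against DP-3 day 1 this fit called 1 (1249 of all 20774). The 4 cell cultures alone gave 6 calls, against 5253 of all 23773 genes.

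The replicate numbers did not pair the libraries, with correlations of same-numbered libraries from -0.061 to 0.111. With the replicate number as a block the calls against FIT were 0 in IT, 0 in DP-3, 2 in D-3 and 9 in D-2. Over all genes they were 0, 164, 904 and 2177. There was 1 in DP-3 against DP-3 day 1 (938 of all genes) and 2 in D-3 against D-2 (3134). DP-3 against D-2 gave 0 (15 of all genes) and D-3 against DP-3 gave 2 (1019). Across the 6 groups there were 10 (5639 of all genes). In D-3 against D-2, all 3 D-3 libraries correlated best with the D-2 library of their own number, at correlations of 0.011 to 0.04.

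Leaving out 1 library at a time gave, against FIT, 0 to 0 calls in IT, 0 to 3 in DP-3, 1 to 5 in D-3 and 4 to 8 in D-2. Over all genes the calls were 0 to 1, 90 to 1438, 240 to 1495 and 1755 to 2980. It gave 1 to 3 in DP-3 against DP-3 day 1 (744 to 1585 of all genes). D-3 against D-2 gave 1 to 3 (2139 to 3519 of all genes) and DP-3 against D-2 0 to 0 (3 to 223). D-3 against DP-3 gave 2 to 3 (329 to 2176 of all genes) and the 6 groups 7 to 11 (5252 to 6489). Expressed in all 6 groups were 15 members at a mean of at least 0.5 FPKM, 4 at 2 FPKM, 9 by group medians, and 9 to 10 without 1 library. The class was the same in all groups for 28 to 31 members under these settings. Of 625 values of the 39 gene calls under the alternatives in which the gene was tested, 514 stayed called and 111 lost the call. Direction could be checked only in the comparisons of a pair of groups, where 0 reversed. The span across the 6 groups has no sign. The depth of FIT replicate 3, 23721666 estimated counts, puts the 12-count limit at 0.506 CPM (counts scaled to a common depth), against 0.152 in the deepest library.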
